A study of Mus musculus with 12 samples.

Results

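Transcripts of the fibrillins, the latent TGF-β binding proteins (LTBPs) and the proteins that assemble elastic fibres were measured by RNA sequencing in 12 libraries of NIH-3T3, a single immortalised line of mouse embryonic fibroblasts. The set held 10 named genes of the 16300 in the table, matched by gene number, and 8 of them had a mean of at least 10 counts per library. Those 8 were Fbn1, Ltbp1, Ltbp2, Ltbp3, Ltbp4, Fbln5, Efemp2 and Mfap5, and the other members, Eln and Fbn2, are given by their counts. The cells were given 100 ng/mL recombinant stanniocalcin-1 with 10 ng/mL TGF-β1 (TS), 10 ng/mL TGF-β1 alone (TGFb1), 100 ng/mL recombinant stanniocalcin-1 alone (STC1) or PBS (Con), each for 24 h and with 3 libraries. The series text calls the 3 libraries of a group biological replicates. The labels do not say how the cultures were separated, so the p-values measure the spread between these libraries, which may be partly technical. Every group came from the same line, and no genetic change was made.

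Fibrillins polymerise into microfibrils, thin extracellular filaments that give tissue its compliance and act as the scaffold on which elastin is laid down. LTBPs share the repeats of fibrillins and, with the exception of LTBP-2, bind the propeptide of TGF-β covalently, so that the cytokine is secreted in a latent complex and held on microfibrils and fibronectin until it is released. Fibulin-4 and fibulin-5 bring tropoelastin and lysyl oxidase to the microfibril, and the microfibril-associated glycoproteins sit along it. Fibroblasts are the main source of these proteins in connective tissue, and TGF-β is itself a well-known inducer of several matrix genes.

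The promoters of 4 members are shown. Fbn1, Fbln5 and Ltbp2 fell with TGF-β1 alone, whereas Ltbp1 did not pass the test in any comparison. The result for Ltbp2 was just inside the threshold and held in 3 of the 12 fits that each left out 1 library. Ltbp3, Ltbp4, Efemp2 and Mfap5, whose promoters are not shown, did not pass the test in any comparison either. Each run is the 250 bases before a RefSeq transcription start, 5′ to 3′ on the gene's strand, in build GRCm38.p6, at chr2:125506439-125506688 (minus strand) for Fbn1, chr12:101819120-101819369 (minus strand) for Fbln5, chr12:84876492-84876741 (minus strand) for Ltbp2 and chr17:75005279-75005528 (plus strand) for Ltbp1. Capitals mark every match, on either strand, to a SMAD element (CAGAC) or a GC box (GGGCGG).
Fbn1: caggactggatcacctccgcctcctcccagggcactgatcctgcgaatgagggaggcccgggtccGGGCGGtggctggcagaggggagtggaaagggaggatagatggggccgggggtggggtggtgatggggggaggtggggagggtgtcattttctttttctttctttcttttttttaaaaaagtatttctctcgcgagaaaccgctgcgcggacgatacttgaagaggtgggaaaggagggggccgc
Fbln5: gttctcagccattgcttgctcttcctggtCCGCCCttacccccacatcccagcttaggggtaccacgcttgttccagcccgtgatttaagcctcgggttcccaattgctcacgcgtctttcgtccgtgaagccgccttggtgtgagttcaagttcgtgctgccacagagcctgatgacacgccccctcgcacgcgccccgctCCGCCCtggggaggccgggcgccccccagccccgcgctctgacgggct
Ltbp2: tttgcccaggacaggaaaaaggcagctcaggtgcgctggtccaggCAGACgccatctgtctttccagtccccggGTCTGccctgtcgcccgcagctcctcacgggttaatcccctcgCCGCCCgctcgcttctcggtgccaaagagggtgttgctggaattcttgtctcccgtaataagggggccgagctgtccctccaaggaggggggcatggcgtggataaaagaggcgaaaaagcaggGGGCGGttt
Ltbp1: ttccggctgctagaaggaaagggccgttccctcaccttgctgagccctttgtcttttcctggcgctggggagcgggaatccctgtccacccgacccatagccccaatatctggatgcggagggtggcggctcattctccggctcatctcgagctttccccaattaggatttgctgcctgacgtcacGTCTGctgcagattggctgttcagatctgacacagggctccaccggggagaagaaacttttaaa

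The Fbn1 window held 1 GC box and 0 SMAD elements, and the Fbln5 window held 2 GC boxes and 0 SMAD elements. The Ltbp2 window held 2 of each, and the Ltbp1 window held 1 SMAD element and 0 GC boxes. SMAD elements were present in 42.2% and GC boxes in 33% of the 32536 RefSeq windows of the same length. A TATA box (TATAAA, in 12.3% of windows) and an AP-1 site (TGANTCA, in 6.73% of windows) were searched on both strands too, and neither was in any of the 13 windows used for members. A second annotated start of Fbln5 and one of Ltbp1 each held 2 SMAD elements and 0 GC boxes. In the windows shown no match overlapped another. The matches describe letters and not bound sites.

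Across the 12 libraries the total ranged between 16867563 and 18521810 counts, and the median biological coefficient of variation was 2.24%. All 8 fibroblast markers were present, with a summed level of 12500 to 13300 CPM (counts scaled to library size) in TS, 12600 to 13000 CPM in TGFb1, 12900 to 13500 CPM in STC1 and 13500 to 14300 CPM in Con. That sum was lower in every TS and every TGFb1 library than in every Con library, and its part in the results below was not tested. The largest parts of the sum were Col1a2 (5080 CPM on average), Col1a1 (2360 CPM) and Vim (2290 CPM). All 7 smooth muscle markers were in the table, and their sums spanned 52.7 to 55.7 CPM in TS, 51.7 to 54.7 CPM in TGFb1, 50.9 to 53.2 CPM in STC1 and 53.2 to 58 CPM in Con, of which Smtn averaged 49.3 CPM. The defining smooth muscle marker Myh11 averaged 0.0996 CPM. The summed endothelial markers did not exceed 0.679 CPM and the epithelial ones 1.25 CPM in any library. The 5 macrophage markers summed to 8.49 to 10.2 CPM in TS, 9.41 to 9.58 CPM in TGFb1, 8.16 to 10.3 CPM in STC1 and 8.17 to 9.41 CPM in Con. Cd14 (5.04 CPM on average) and Cd68 (3.5 CPM) made up most of that sum, Csf1r and Ptprc also had counts in every library, and Adgre1, which defines macrophages, was at 0 in 11 of 12. In bulk RNA, fewer cells of a type and less RNA per cell cannot be told apart.

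On the scale of CPM per kilobase of transcript, which allows levels of different genes to be set side by side, Efemp2 stood highest. Efemp2 encodes fibulin-4, which is needed for elastic fibre assembly, and it averaged 87.8 CPM per kilobase with a range of 82.3 to 91.4 over the 12 libraries. Fbln5 (fibulin-5) averaged 73.5 CPM per kilobase (70 to 75.9), and Mfap5, which encodes the microfibril-associated glycoprotein MAGP-2, averaged 73.1 (71.3 to 75.7). The ranges of Fbln5 and Mfap5 overlapped almost completely, so their order is not resolved. Ltbp3 averaged 29.1 CPM per kilobase (27.1 to 31.3) and Ltbp1 averaged 28.2 (27.5 to 29.1), and these also overlapped. Fbn1, the main fibrillin of connective tissue, averaged 20.6 CPM per kilobase (19 to 22.1) and lay below all of these without overlap. Ltbp2 followed at 6.47 CPM per kilobase (5.92 to 6.99) and Ltbp4 at 1.14 (0.949 to 1.27), again without overlap. Each of these values uses the longest RefSeq-linked transcript of the gene and so depends on which transcript the cells used.

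**Figure D1:**
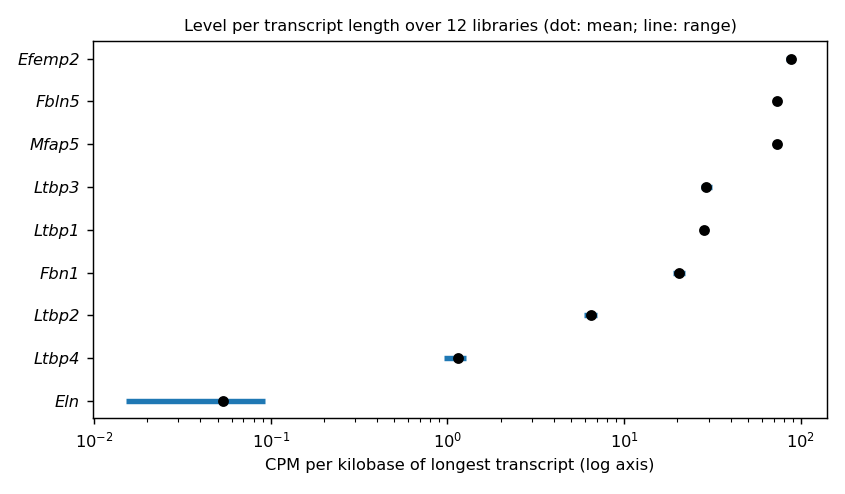
Level of 9 members in CPM per kilobase of the longest transcript, on a log axis. Dots are means over the 12 libraries and lines run between the lowest and highest library; Efemp2 is highest at 87.8, and Eln, the elastin gene, is lowest at 0.0534.

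Elastin itself was almost absent. Eln, which encodes the soluble precursor tropoelastin, had 4, 3 and 6 counts in TS, 1, 4 and 2 in TGFb1, 2, 2 and 4 in STC1, and 4, 5 and 6 in Con, or 43 counts in all. Most of these values were near the level of 3 counts, which corresponds to 0.162 to 0.178 CPM. Summed over the 3 libraries, Eln had 13 counts in TS, 7 in TGFb1, 8 in STC1 and 15 in Con. The exact 95% Poisson intervals, which cover counting error only, were 6.92 to 22.2 counts for TS, 2.81 to 14.4 for TGFb1, 3.45 to 15.8 for STC1 and 8.4 to 24.7 for Con. They overlapped throughout, and a difference in Eln between groups was not detectable at this depth. Fbn2, the fibrillin best known from development, had 2 counts in all 12 libraries, 1 in TS replicate 1 and 1 in Con replicate 3.

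TGF-β1 alone was set against PBS to ask what the cytokine does to the genes that build its own extracellular store. Fbn1, Fbln5 and Ltbp2 fell, and no member rose. The declines were small: Fbn1 fell by 9.22%, Fbln5 fell by 6.95% and Ltbp2 fell by 10.3%. Over all 11763 genes tested, 2.08% fell in this comparison. The median log2 fold change of the 8 members was -0.10, against -0.00 over all tested genes, and 7 of the 8 had a negative fold change, against 51.1% of all genes.

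Fbn1 measured 197.7, 192.9 and 192.1 CPM in TGFb1 and 217.2, 213.4 and 211.2 CPM in Con. The highest TGFb1 library lay below the lowest Con library. Its log2 fold change was -0.14 (SE 0.0306, 95% interval -0.20 to -0.08), with an adjusted p of 0.00369 by the quasi-likelihood test of edgeR with Benjamini-Hochberg adjustment over all genes tested, which is the test behind each adjusted p below.

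Fbln5 measured 414.5, 409.7 and 408.2 CPM in TGFb1 and 442.6, 442.6 and 439.3 CPM in Con. Again all TGFb1 libraries were below all Con libraries, and the groups were tight, at 410.8 ± 3.28 CPM in TGFb1 and 441.5 ± 1.88 CPM in Con (SD, n = 3 each). The log2 fold change was -0.10 (SE 0.0261) and the edgeR adjusted p was 0.0122. This call was lost when Con replicate 1, Con replicate 2, TGFb1 replicate 2 or TGFb1 replicate 3 was left out, with adjusted p-values between 0.0504 and 0.0654 and nearly the same fold change.

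Ltbp2, whose product binds fibrillin-1 but not latent TGF-β, measured 39.08, 41.1 and 40.03 CPM in TGFb1 and 46.16, 44.86 and 42.91 CPM in Con. The groups did not overlap. The log2 fold change was -0.16 (SE 0.0484), with an edgeR adjusted p of 0.0497, just inside the threshold. Of the 12 fits that each left out 1 library, its call held in the 3 without Con replicate 3, TS replicate 2 or TS replicate 3, and the adjusted p ran between 0.0323 and 0.268.

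The LTBPs that carry latent TGF-β gave no call. Ltbp1, whose product holds latent TGF-β1 in fibroblast matrix, measured 194.2, 190.5 and 186.1 CPM in TGFb1 and 191.7, 189.6 and 183.6 CPM in Con. The groups overlapped, the log2 fold change was 0.01 (95% interval -0.04 to 0.07), and the edgeR adjusted p was 0.866. Ltbp3 measured 145.3, 150.4 and 147.9 CPM in TGFb1 and 162.3, 155.2 and 154.1 CPM in Con. These values did not overlap, but at a log2 fold change of -0.09 (SE 0.0324) the edgeR adjusted p was 0.111. Ltbp4, the least abundant LTBP, measured 5.96, 6.02 and 5.11 CPM in TGFb1 and 6.5, 6.35 and 6.67 CPM in Con, and its log2 fold change of -0.19 had the wide interval of -0.42 to 0.04.

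Of the other assembly proteins, Efemp2 measured 155.7, 156.2 and 146.7 CPM in TGFb1 and 162.9, 158.1 and 159.9 CPM in Con. Its groups did not overlap, and the log2 fold change was -0.07 (SE 0.0312, edgeR adjusted p of 0.224). Mfap5 measured 107.4, 110.1 and 109 CPM in TGFb1 and 109.2, 108.5 and 109.9 CPM in Con, with overlapping groups and a log2 fold change of -0.01 (95% interval -0.07 to 0.06). In all, 6 of the 8 members were lower in every TGFb1 library than in every Con library, against 10.9% of all genes tested. These CPM values were not adjusted for the length and GC trend described below. The exceptions were Ltbp1 and Mfap5.

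**Figure D2:**
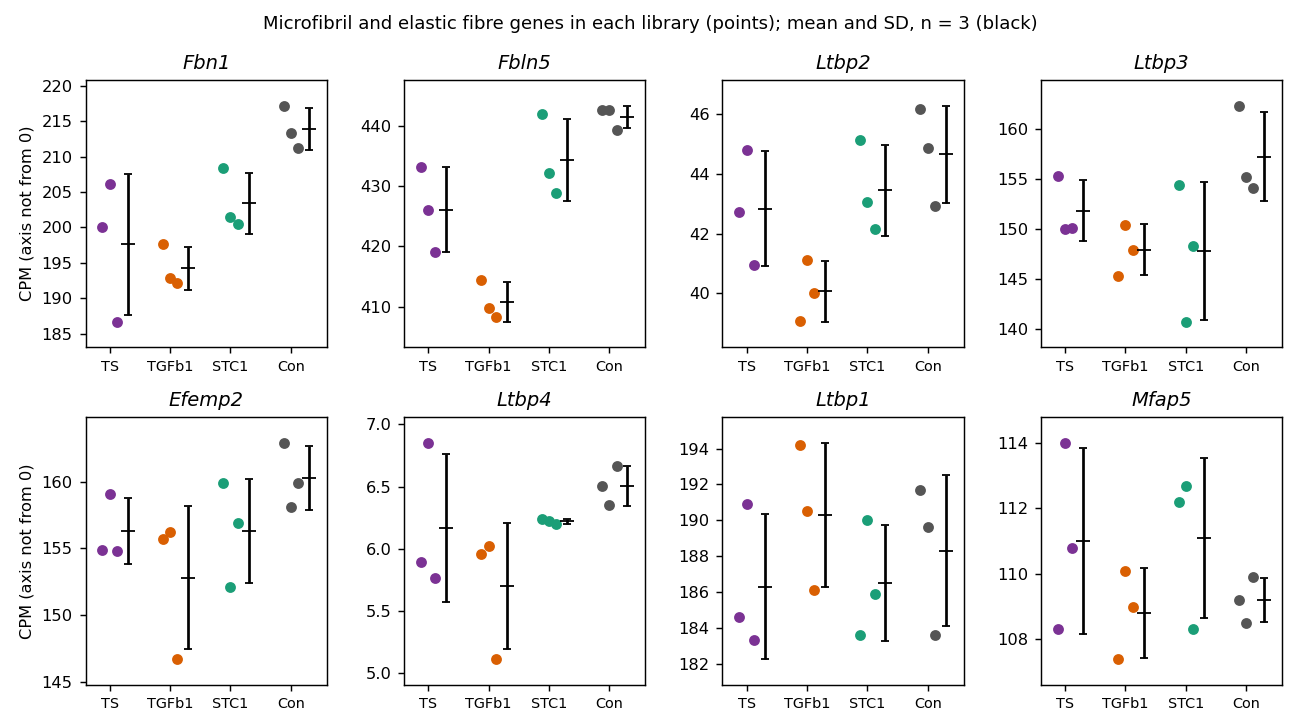
Level in CPM of the 8 members in each of the 12 libraries, by group (TS, TGFb1, STC1, Con), with the mean and SD in black; the axes do not start at 0. In the Fbn1 and Fbln5 panels the TGFb1 libraries, at 192.1 to 197.7 and 408.2 to 414.5 CPM, lie below the Con libraries, at 211.2 to 217.2 and 439.3 to 442.6 CPM.

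With both proteins present, Fbn1 was the one member called against PBS. In TS it measured 200, 206.2 and 186.7 CPM, against 217.2, 213.4 and 211.2 CPM in Con. All TS libraries were below all Con libraries, with TS replicate 3 the lowest of the 12. The share of all genes separated in this way is not given for TS against Con. The log2 fold change was -0.11 (SE 0.0305, edgeR adjusted p of 0.0146), and 2.88% of all genes fell in this comparison. The call was lost without TS replicate 3 (edgeR adjusted p of 0.172) and without Con replicate 1 (edgeR adjusted p of 0.0954).

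Fbln5 in TS measured 433.2, 426.1 and 419.1 CPM, below the Con range of 439.3 to 442.6 CPM, with a log2 fold change of -0.05 (SE 0.026) and an edgeR adjusted p of 0.279. Ltbp2 in TS measured 42.72, 44.79 and 40.95 CPM and overlapped Con, at a log2 fold change of -0.06 (SE 0.0476, edgeR adjusted p of 0.531). The 8 members spanned log2 fold changes of -0.11 for Fbn1 to 0.02 for Mfap5. This comparison and that of TGFb1 with Con share the 3 Con libraries.

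Adding stanniocalcin-1 to TGF-β1 gives the effect of stanniocalcin-1 in cells that also received the cytokine. Here no member was called in TS against TGFb1 by edgeR or by DESeq2. No gene of all those tested was called either (0%). Only Fbln5 had an unadjusted p under 0.05, against 6.5% of all genes. Its 3 TS libraries, at 433.2, 426.1 and 419.1 CPM, lay above its TGFb1 libraries, at 414.5, 409.7 and 408.2 CPM. The share of all genes so separated is not given for this comparison either. The log2 fold change was 0.05 (95% interval 0.00 to 0.11) and the edgeR adjusted p was 0.758. Of the other members, Ltbp2 had 0.10 (-0.00 to 0.19), Fbn1 0.03 (-0.04 to 0.09) and Ltbp1 -0.03 (-0.09 to 0.03) as log2 fold changes with their 95% intervals. Fbn1 in TS, at 186.7 to 206.2 CPM, enclosed the whole TGFb1 range of 192.1 to 197.7 CPM.

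Stanniocalcin-1 alone gave no call among the members against PBS, by edgeR or by DESeq2, and 0.051% of all genes were called. At an unadjusted p under 0.05 there were 2 members, Ltbp3 and Fbn1, against 10.6% of all genes. Fbn1 measured 208.4, 201.4 and 200.5 CPM in STC1, all below the Con range of 211.2 to 217.2 CPM, with a log2 fold change of -0.07 (SE 0.0303, edgeR adjusted p of 0.369). Ltbp4, at 6.24, 6.22 and 6.2 CPM in STC1, was also below its Con range of 6.35 to 6.67 CPM (edgeR adjusted p of 0.896). The share of all genes without overlap between groups is given for TGFb1 against Con only. Separations in the other comparisons therefore have no such share beside them and only describe the libraries. Ltbp3 measured 154.4, 140.7 and 148.3 CPM in STC1 against 162.3, 155.2 and 154.1 CPM in Con, where the highest STC1 library overlapped the lowest Con library. Its log2 fold change was -0.09 (SE 0.0323, edgeR adjusted p of 0.278). The intervals of the other 6 members all included 0. Fbln5, at 442, 432.2 and 428.8 CPM in STC1, overlapped Con, and its log2 fold change was -0.02 (95% interval -0.08 to 0.03).

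**Figure D3:**
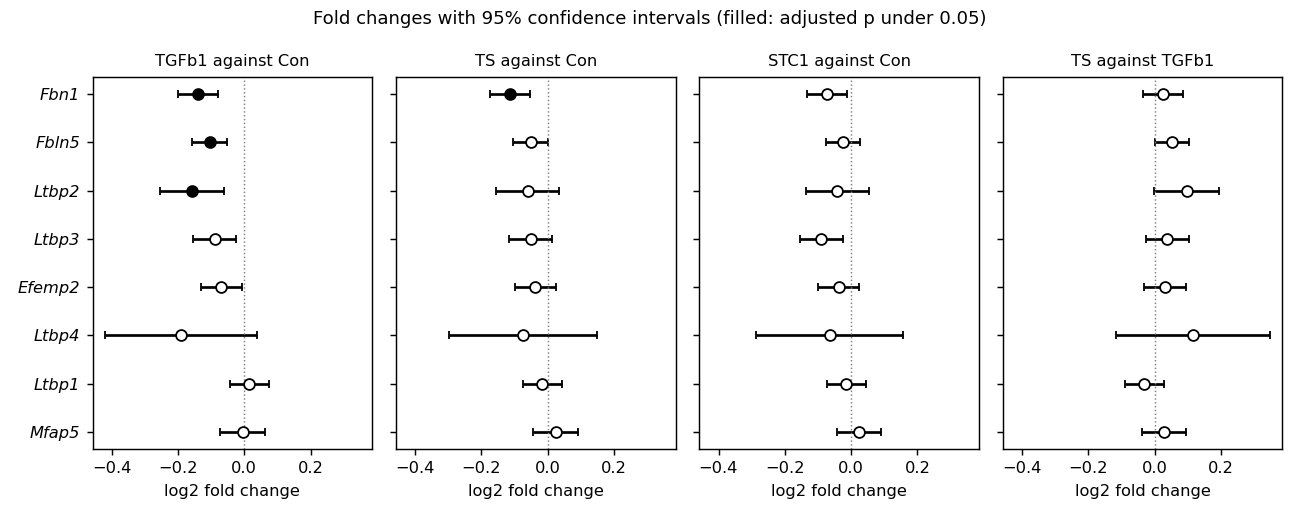
Log2 fold changes of the 8 members with 95% intervals in 4 comparisons, where filled points have an adjusted p under 0.05. The filled points are Fbn1 (-0.14), Fbln5 (-0.10) and Ltbp2 (-0.16) in TGFb1 against Con and Fbn1 (-0.11) in TS against Con.

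TS against STC1, the TGF-β1 effect with stanniocalcin-1 present, held no called member by edgeR or DESeq2, while 0.298% of all genes were called. No member had an unadjusted p under 0.05, against 9.17% of all genes, and log2 fold changes ran between -0.04 for Fbn1 and 0.04 for Ltbp3. The interaction, which tests whether the effect of TGF-β1 differs when stanniocalcin-1 is present, called no member by either tool and 0% of all genes. At an unadjusted p under 0.05 it held Ltbp3, Fbn1, Fbln5 and Ltbp2, 4 of the 8 members, against 8.29% of all genes. The interaction terms on the log2 scale were 0.13 for Ltbp3 (SE 0.0459, edgeR adjusted p of 0.396), 0.10 for Fbn1 (SE 0.0432), 0.08 for Fbln5 (SE 0.0369) and 0.14 for Ltbp2 (SE 0.0681). All 4 were positive: the log2 fold change of TS against STC1 was above that of TGFb1 against Con for each, and for Ltbp3 it was 0.04 in TS against STC1 and -0.09 in TGFb1 against Con. The Con and TGFb1 libraries enter the interaction as well as the comparison of TGFb1 with Con, so the sign is not independent of the declines given above.

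Averaged over the presence and absence of stanniocalcin-1, the TGF-β1 main effect (6 libraries against 6) called Fbn1 and Fbln5, while 2.31% of all genes fell. The log2 differences were -0.09 for Fbn1 (SE 0.0216, edgeR adjusted p of 0.0064), -0.07 for Fbln5 (SE 0.0184, edgeR adjusted p of 0.0241) and -0.09 for Ltbp2 (SE 0.034, edgeR adjusted p of 0.129). The Fbln5 call was lost without Con replicate 1, Con replicate 2, STC1 replicate 1, TGFb1 replicate 2, TGFb1 replicate 3 or TS replicate 3, where the highest edgeR adjusted p was 0.0849. The stanniocalcin-1 main effect called no member by edgeR or DESeq2 and 0.085% of all genes, with no member at an unadjusted p under 0.05 against 8.33% of all genes. Its log2 differences ran between -0.03 for Ltbp3 and 0.03 for Ltbp2.

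Longer transcripts tended to be lower in the treated groups, and GC-rich ones tended to be lower with either protein alone. Over 6134 genes the Spearman correlation of the log2 fold change with transcript length was -0.31 in TGFb1 against Con, -0.30 in STC1 against Con and -0.44 in TS against Con, as a description across genes of shared libraries. With GC content it was -0.21 in TGFb1 against Con, -0.27 in STC1 against Con and -0.005 in TS against Con. Fbn1 has the longest transcript of the 8 members, at 9847 bases, and Mfap5 the shortest, at 1506 bases. When the dependence on length and GC was removed from each library, Fbn1 in TGFb1 against Con had a log2 fold change of -0.10 (SE 0.0277, edgeR adjusted p of 0.0346) and Fbln5 had -0.09 (SE 0.0241, edgeR adjusted p of 0.0192). Both calls held. Ltbp2 had -0.09 (SE 0.046, edgeR adjusted p of 0.304), so its call was lost. Fbn1 in TS against Con had -0.07 (edgeR adjusted p of 0.198), and in the TGF-β1 main effect Fbn1 had -0.06 (edgeR adjusted p of 0.0545) and Fbln5 had -0.05 (edgeR adjusted p of 0.0697), so these 3 calls were lost too. Ltbp1 had 0.05 in TGFb1 against Con, also without a call (edgeR adjusted p of 0.315). Ltbp3 moved to -0.02 (edgeR adjusted p of 0.779), Ltbp4 to -0.12, Efemp2 to -0.06 and Mfap5 to -0.05 there, all uncalled. The trend removed from Ltbp3 was 0.1005, 0.0269 and 0.0025 on the log2 scale in Con replicates 1, 2 and 3. From Mfap5 it was -0.0618, -0.0308 and -0.0108.

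**Figure D4:**
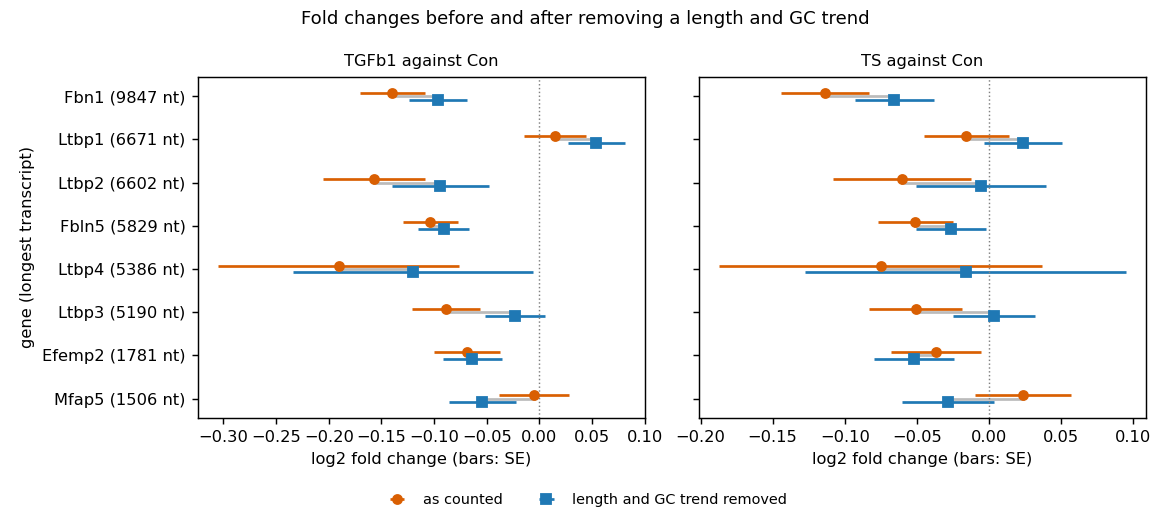
Log2 fold changes (points, with SE bars) of the 8 members in TGFb1 against Con and TS against Con, as counted and after removal of the dependence on length and GC, ordered by transcript length from 9847 bases for Fbn1 down to 1506 bases for Mfap5. Fbn1 moves to -0.10 in TGFb1 against Con and to -0.07 in TS against Con.

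The shares of the LTBP pool differed little in size between groups, and the 4 shares depend on each other. As a share of the summed CPM per kilobase of the 4 LTBPs, Ltbp3 made up 45.1% ± 0.948 in TS, 44.4% ± 0.671 in TGFb1, 44.4% ± 1.4 in STC1 and 45.6% ± 0.399 in Con (SD, n = 3 each). Ltbp1 made up 43.1% ± 0.585 in TS, 44.5% ± 0.792 in TGFb1, 43.6% ± 1.43 in STC1 and 42.5% ± 0.379 in Con. The TGFb1 libraries, at 44 to 45.4%, lay above the Con libraries, at 42.1 to 42.9%. The CPM of Ltbp1 itself overlapped, at 186.1 to 194.2 in TGFb1 and 183.6 to 191.7 in Con. Ltbp2 contributed 9.46% ± 0.203 in TGFb1 (9.23 to 9.6%) against 10.2% ± 0.14 in Con (10 to 10.3%). The Ltbp3 libraries spanned 43.7 to 44.9% in TGFb1 and 45.1 to 45.8% in Con. Ltbp4 made up under 2% in every library, at 1.5 to 1.72% in TGFb1 and 1.77 to 1.91% in Con. These differences in share were not tested, and the shares were not adjusted for the length and GC trend. The shares sum to 100%, so a lower share of one raises the others.

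Several enzymes and glycoproteins that work with microfibrils fell in the same comparisons. Of 23 listed partners in assembly and crosslinking, 19 were tested. In TGFb1 against Con 0 rose and 6 fell, where 1.9% of all genes tested rose and 2.08% fell, with a median log2 fold change of -0.11 against -0.00 over all genes tested. The number that fell was 3 without Con replicate 1, Con replicate 2 or TGFb1 replicate 3. The 5 with the smallest p were Lox, the lysyl oxidase that crosslinks elastin and collagen (-0.23, SE 0.0269, edgeR adjusted p of 1.71e-08), the fibrillin-binding proteoglycan gene Vcan (-0.13), the elastic fibre glycoprotein gene Emilin1 (-0.18), the fibulin-3 gene Efemp1 (-0.11) and the lysyl oxidase-like gene Loxl1 (-0.11). Lox measured 4272, 4351 and 4369 CPM in TGFb1 and 5287, 5138 and 4853 CPM in Con, without overlap. In TS against Con 5 fell, among them Lox (-0.29), Vcan (-0.13), Loxl1 (-0.13) and Hspg2 (-0.10), and 1 rose, Dcn (0.11), which encodes the proteoglycan decorin, where 2.88% of all genes fell and 3.18% rose. The median of the 19 was -0.08, against -0.00 over all genes tested. Hspg2 overlapped between these groups, at 393.2, 416.3 and 398.8 CPM in TS and 461.5, 427.7 and 409.3 CPM in Con. Without Con replicate 1, 2 fell, and without Con replicate 2 or TS replicate 3, 3 fell. The Dcn call was lost without Con replicate 1, Con replicate 2, TS replicate 1 or TS replicate 3, and with the dependence on length and GC removed. No partner was called in STC1 against Con or in TS against TGFb1, where the smallest adjusted p belonged to Hspg2 (-0.11, edgeR adjusted p of 0.0884) and to Dcn (0.09, edgeR adjusted p of 0.626). Mfap2, Loxl2, Adamtsl2 and Thsd4 did not pass the filter on low counts, at no more than 0.529 CPM in any library. Mfap2 encodes MAGP-1, the other microfibril-associated glycoprotein, and its highest level was 0.0594 CPM. By DESeq2, 3 partners fell in STC1 against Con.

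The latent complex and the factors that release TGF-β from it numbered 19, of which 17 were tested. In TGFb1 against Con 0 rose and 2 fell, Fn1 (-0.12, edgeR adjusted p of 0.00429), which encodes the fibronectin on which LTBP-1 is deposited, and Mmp14 (-0.12, edgeR adjusted p of 0.0134), a membrane metalloproteinase. Of all genes, 1.9% rose and 2.08% fell there, and the median of the 17 was -0.07, against -0.00 over all genes tested. In TS against Con these and Itgav (-0.10, edgeR adjusted p of 0.0297), the αv integrin chain that binds latent TGF-β, fell and none rose, where 2.88% of all genes fell and 3.18% rose. The median of the 17 there was -0.05, against -0.00 over all genes tested. Fn1 overlapped between these groups, at 5525, 5780 and 5383 CPM in TS and 6261, 5978 and 5780 CPM in Con. Without Con replicate 1, 0 fell in either comparison, and without TS replicate 3, 0 fell in TS against Con. Without TGFb1 replicate 3, 1 fell in TGFb1 against Con, and without TS replicate 1, 1 fell in TS against Con. In STC1 against Con none was called, and Fn1 had -0.08 and Mmp2 -0.07 as log2 fold changes.

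Among 15 listed genes, for proteases that act on elastin or fibrillin and for protease inhibitors, 12 were tested. Mmp2, Mmp14 and Htra1 are also on the latent complex list, so the Mmp14 results are those given above and not separate ones. In TGFb1 against Con Ctsl, the elastin-degrading cathepsin L, rose (0.15, edgeR adjusted p of 9.1e-05), while Timp3 (-0.12), Mmp14 (-0.12) and Serpine2 (-0.15) fell. Of all genes, 1.9% rose and 2.08% fell there, and the median of the 12 was -0.08, against -0.00 over all genes tested. The number that fell was 0 without TGFb1 replicate 3, 1 without Con replicate 1 or Con replicate 2, and 5 without TS replicate 3 or with the replicate numbers as a block. In TS against Con Ctsl (0.14), Timp1 (0.18) and Ctsb (0.09) rose and Timp3 (-0.13) and Mmp14 (-0.12) fell, where 3.18% of all genes rose and 2.88% fell. The median of the 12 there was -0.01, against -0.00 over all genes tested. Leaving out a library, 2 to 4 rose and 1 to 2 fell, and the number that fell was 1 without Con replicate 1, TS replicate 1 or TS replicate 3. None was called in STC1 against Con or in TS against TGFb1. The list holds enzymes and inhibitors together, so its counts carry no net direction.

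Of 12 listed TGF-β response genes, 11 were tested. Ltbp2 was the one called as lower in TGFb1 against Con, where 2.08% of all genes fell. This is the Ltbp2 call given above and not a separate result. The list also includes the member Eln, which was not tested. The feedback inhibitor Smad7 had a log2 fold change of 0.14 (95% interval -0.05 to 0.34, edgeR adjusted p of 0.482) in TGFb1 against Con. Skil, which encodes a SMAD corepressor, had 0.04 (-0.05 to 0.13, edgeR adjusted p of 0.739). In TS against Con Smad7 had 0.23 (edgeR adjusted p of 0.153), and no gene of the list fell, where 2.88% of all genes fell. Neither Smad7 nor Skil passed the test in these comparisons.

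The genes most like the called members were found by the root mean square difference of log2 CPM about each gene's own mean, over the 12 libraries and 6083 other genes. For Fbn1 these were Fn1 (0.0245), Zmiz1 (0.0259) and Gtf2i (0.0263), where Fbn1 itself varied by 0.0633 about its mean. Fbn1 and the fibronectin gene thus followed each other more closely than Fbn1 and any member compared, the nearest being Fbln5 at rank 46. For Fbln5 the nearest were Amotl2 (0.0197), Wls (0.0206) and Nfkb1 (0.0209), and for Ltbp2 they were Steap3 (0.0287), Cbx6 (0.0315) and Ddr1 (0.032). Seen from Ltbp2, Fbn1 ranked 11 and Fbln5 ranked 20, whereas Ltbp1 ranked 1885. These genes share the libraries and any length or GC trend in them.

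Annotated neighbours limit some counts. In GENCODE vM21, an annotation of GRCm38, 20.1% of the exonic bases of Fbn1 are shared with Gm9913 and 9.34% of those of Ltbp2 with D030025P21Rik, both on the opposite strand. Efemp2 shares 4.57% with Mus81, also on the opposite strand, while Fbln5, Ltbp1, Ltbp4 and Mfap5 share none. The sources used here do not say whether counting used strand, so reads in the shared bases cannot be told apart. All 10 members had whole counts in all 12 libraries, within 1e-06, in a table where 88.5% to 89.1% of each library's values were whole.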

How the data were processed

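Poly-A RNA libraries of NIH-3T3 were made with the MGIEasy kit, per the labels' protocols. The authors deposited expected counts, which are estimates and may be fractional, per gene and not scaled between libraries. Per the submitters' processing notes the build was GRCm39. For the aligner, counting program and strand setting: not given in the sources used here. Symbols came from a RefSeq table for 16177 of 16300 gene numbers, and gene positions are not given for the counts because the reference used here is of the build GRCm38. Promoter windows are from RefSeq on GRCm38.p6 and were used for 7 of the 10 members, at 13 windows, of which 4 are shown.

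Expected counts were rounded. Genes passing filterByExpr (11763) were scaled by TMM and fitted with 1 mean per group over all 12 libraries (8 residual degrees of freedom), and tested two-sided by robust quasi-likelihood in edgeR 4.0.16 (R 4.3.3). Adjusted p-values are Benjamini-Hochberg over all tested genes, and a gene was called, and said to have risen or fallen, under 0.05. CPM values use TMM library sizes. CPM per kilobase divides CPM by the longest transcript linked to RefSeq in GENCODE vM21. Natural splines with 3 degrees of freedom in log2 length and GC content, fitted per library to genes above a mean log2 CPM of 5, gave the trend that was removed. The fits were tested on simulated data.

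The alternatives were DESeq2 1.42.0, library sizes without TMM, RLE scaling, no filter, a fit of the compared groups alone, a minimum mean count of 50, a replicate block, the length and GC trend, and leaving out each library. The members and lists were chosen with earlier results of these data known. The text names the members with a mean of at least 10 counts, up to 5 called genes of smallest p per list and comparison (the 2 of smallest p where none was called), the 3 genes most alike to each of the 3 members of smallest adjusted p, and Smad7 and Skil. Some listed items are not reported here. Mfap2, Loxl2, Adamtsl2 and Thsd4, named as untested, and the motifs were chosen after values were seen.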

Additional observations from a re-analysis of the deposited data

How the results depend on the processing

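In TGFb1 against Con, 2 to 3 members were called under the 9 alternatives that kept all compared libraries and 1 to 3 when 1 library was left out; the count was 1 without Con replicate 1, Con replicate 2, TGFb1 replicate 2 or TGFb1 replicate 3, and Fbn1 was called throughout. DESeq2 gave no adjusted p for Ltbp2. In TS against Con the count of 1 became 0 with the length and GC trend removed, with and without the replicate block, and spanned 0 to 1 when a library was left out. In the TGF-β1 main effect the count of 2 became 0 with the length and GC trend removed, was 2 with the replicate block added to that, and spanned 1 to 2 when a library was left out. The other 5 comparisons had 0 members called under every alternative run.

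Among the listed genes, those crosslinking and assembly partners that fell in STC1 against Con numbered 3 with DESeq2, 2 without the count filter, 1 with the replicate block, 1 with that block and the length and GC trend removed, and 0 to 2 when a library was left out. Leaving out a library, 3 to 7 partners fell in TGFb1 against Con, 2 to 5 fell and 0 to 1 rose in TS against Con, and with the length and GC trend removed 0 rose there. Of the latent complex list, 1 fell with the trend removed in TGFb1 against Con, 1 in TS against Con (1 with the replicate block too), and 0 to 3 and 0 to 4 when a library was left out. Of the proteases and inhibitors, 5 fell in TGFb1 against Con without TMM and 5 with the replicate block, and leaving out a library gave 0 to 5, and 1 to 2 in TS against Con. Of the response genes, 0 fell in TGFb1 against Con with RLE scaling, without the count filter, with the compared groups alone, with the trend removed (with and without the replicate block) or with DESeq2, and 0 to 1 when a library was left out.

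Replicate numbers did not pair the samples: same-numbered libraries' deviations correlated between -0.023 and 0.245, over 0.1 in 6 of 18 pairs. With the replicate block 3 members were called in TGFb1 against Con, 1 in TS against Con and 2 in the TGF-β1 main effect, and it changed no member's call.

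No fold change that was called, before or after, changed sign. With the length and GC trend removed, without and with the replicate block, uncalled log2 fold changes of the other sign were 0.0186 and 0.0188 (Ltbp1), 0.012 and 0.0124 (Ltbp2) and -0.0145 in both (Mfap5) in STC1 against Con, and 0.0235 and 0.0233 (Ltbp1), 0.0035 and 0.0037 (Ltbp3) and -0.0283 and -0.0285 (Mfap5) in TS against Con. Leaving out 1 library, log2 fold changes ran between -0.006 and 0.0645 for Fbn1 in TS against TGFb1, between -0.0013 and 0.0303 for Ltbp1 and -0.0138 and 0.0043 for Mfap5 in TGFb1 against Con, and between -0.0304 and 0.0003 for Ltbp1 in STC1 against Con. The cause of these changes was not tested. With 3 libraries a group, depth limits Ltbp4, at 87 to 121 counts, and leaves Eln and Fbn2 without a test.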
